A study of Mus musculus with 6 samples.

Results

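The 10 genes described here encode the enzymes that make succinate and oxidise it in the mitochondrion: Ogdh and Dlst of the 2-oxoglutarate dehydrogenase complex, Suclg1, Suclg2 and Sucla2 of succinyl-CoA ligase, Sdha, Sdhb, Sdhc and Sdhd of succinate dehydrogenase, and Fh1, fumarase. A probe set was taken as theirs where the platform annotation gave it exactly 1 symbol and that symbol was one of these. This gave 22 probe sets, of which 19 were tested, and 10 of the 10264 genes tested in all. In the citric acid cycle, 2-oxoglutarate is turned into succinyl-CoA, the thioester is split by a ligase that saves its energy as ATP or GTP, and the succinate set free is oxidised to fumarate by succinate dehydrogenase, which is also complex II of the respiratory chain and passes its electrons to ubiquinone. Fumarase then adds water to give malate. In brown fat, succinate is also known as a fuel whose oxidation feeds heat production, and outside cells it acts on a receptor, Sucnr1.

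The tissues were interscapular brown fat and epididymal white fat of untreated male C57BL/6 mice, 10 to 12 weeks old and kept at ambient temperature. Each tissue was represented by 3 samples, each on its own Affymetrix 430_2 array. Both came from the same 3 mice, but the labels do not say which brown sample belongs with which white one. The type of fat and its place in the body cannot be told apart, and in whole tissue neither can a gene's lower level per cell be told apart from fewer cells that express it. Signals below are quantile-normalised intensities with no unit, and differences are brown minus white on the log2 scale, with the standard error of the limma fit. A gene was called where its Benjamini-Hochberg adjusted p, over all 19819 probe sets tested, was below 0.05.

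The arrays called 35.6% to 37.5% of probe sets present in brown and 45.2% to 45.8% in white. The 3'/5' signal ratio of actin, a measure of RNA integrity, ran from 1.36 to 2.24 in brown, highest on replicate 2, and from 1.19 to 1.73 in white. Ucp1, the uncoupling protein of brown fat, averaged 12940 on the brown arrays and, with no present call there, 26.1 on the white ones. Leptin (Lep), a hormone of white fat, averaged 54.2 on brown and 1743 on white arrays. In the series table that accompanies the array files, the same genes run the other way: its columns headed brown hold Ucp1 signals of 22.4 to 93.9 and those headed white 13190 to 13280. Each of its 6 columns correlated best with the array file of the same replicate number in the other tissue. All directions below rest on the array files, and with the series table as headed every difference of the 10 genes turns its sign. Markers of cells other than fat cells moved with the tissue as well: all 5 macrophage markers (summed signal 2014 to 2513 in brown, 13460 to 13850 in white) all 4 fibroblast markers (5403 to 5669 against 17260 to 18070) and all 3 mesothelial markers (41.2 to 80.8 against 1217 to 1428) were higher in white. So were 2 of 4 endothelial markers and the 1 lymphocyte marker tested, Ighm (117.8 against 4891). Among lymphocyte markers not tested, Cd3e (24.9 against 28.9) had no present call. Cd79a (33.0 against 34.4) had 1, on a white array. Of 6 skeletal muscle markers (1134 to 1461 against 530.7 to 660.2), 2 were tested. Only Myl1 was called, higher in brown (1011 against 306). Acta1 had the higher mean in white (81.6 against 180) and was not called (adjusted p = 0.122). Ckm, Mylpf and Tnnt3 had no present call in either tissue. Myh4 (22.3 against 8.29) was called present on 2 brown arrays and 0 white arrays, and was not tested. The part of these cells in the results below was not tested.

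All 10 genes were higher in brown fat, from 2.09-fold for Suclg2 to 6.05-fold for Suclg1, each by its main probe set (defined below). The signals of the tissues did not overlap on any of these main probe sets. Counting all 19 tested probe sets of the 10 genes, 18 did not overlap, against 62.4% of all probe sets tested. The median difference of the 10 genes was 2.07, against -0.04 over all genes tested, of which 27.7% were called higher in brown and 32.2% higher in white. Of their 19 tested probe sets, 18 were called higher in brown and 0 in white, where 24.6% and 29.9% of all probe sets were. The exception was a dim probe set of Sucla2. The other 3 probe sets, 1 each of Sdha, Sucla2 and Dlst, had no present call on any array and were not tested. Each gene's main probe set, the tested one with the highest mean signal, was called present on all 6 arrays.

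**Figure D1:**
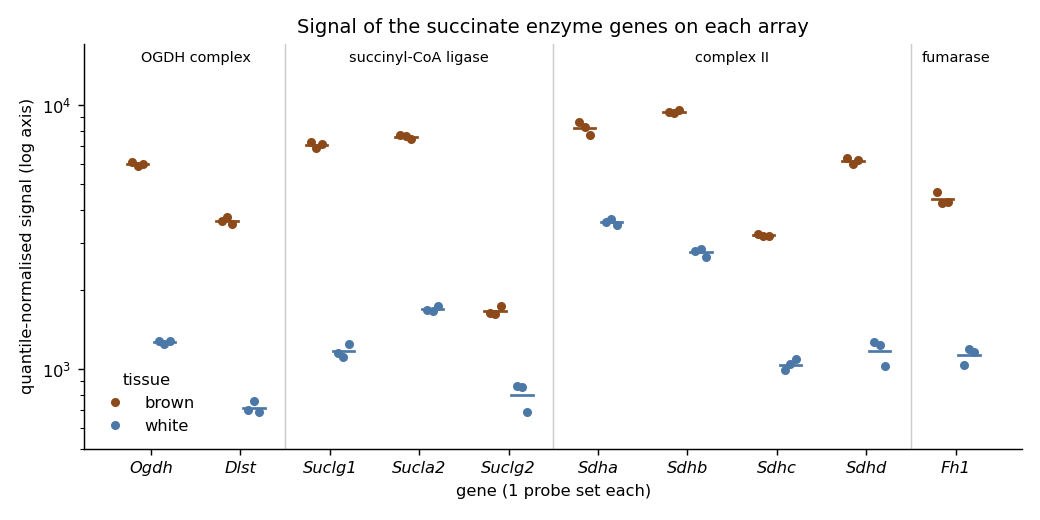
Quantile-normalised signal (log axis) of the main probe set of each gene on each array, with brown arrays in brown, white arrays in blue and bars at the tissue means (n = 3 each). All brown points of a gene lie above all its white points, and the gap is narrowest for Suclg2; levels of different genes are not comparable, because each probe set responds differently.

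Ogdh encodes the first component of the 2-oxoglutarate dehydrogenase complex, which removes carbon dioxide from 2-oxoglutarate. Its signals were 6094, 5873 and 5969 on the brown arrays and 1280, 1245 and 1283 on the white ones. Replicates of a tissue lay close together and the tissues stood well apart, a difference of 2.24 ± 0.05 (SE; adjusted p = 9.55e-10). A second, dim probe set of Ogdh, with 175 to 182 in brown, was not called present on any white array. By mean log2 signal it was 13.7-fold higher in brown (adjusted p = 9.12e-05), a fitted value that rests on white signals of 5.63 to 27.6. Dlst encodes the core of the same complex, which passes the succinyl group to coenzyme A. Dlst had 3631, 3753 and 3544 in brown and 698.4, 758.8 and 688.5 in white, a difference of 2.35 ± 0.06 (adjusted p = 2.18e-09). Its 2 dimmer tested probe sets were both higher in brown. The first had no present call in white and was 4.14-fold higher by mean log2 signal, and the second differed by 1.48. On single arrays the ratio of Dlst to Ogdh overlapped between tissues and changed by 0.11 (exact permutation p = 0.3). The series table differs here: as headed, its shift is -1.10, which with the sign turned puts Dlst ahead in brown by far more.

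The third component, dihydrolipoamide dehydrogenase (Dld), which this complex shares with pyruvate dehydrogenase, had a difference of 2.22 (3141 ± 118 against 673 ± 41.3; SD, n = 3). Mrps36, named for the mitochondrial ribosome but also described as a subunit that ties Dld to the complex, had a difference of 2.73. Dhtkd1, a relative of Ogdh that acts on 2-oxoadipate in lysine breakdown, was lower in brown (73.1 ± 13.9 against 200 ± 42.0, difference -1.45, adjusted p = 0.000163).

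Succinyl-CoA ligase consists of an alpha subunit, Suclg1, and 1 of 2 beta subunits that decide the nucleotide: Sucla2 makes the form that yields ATP, and Suclg2 the form that yields GTP. Suclg1 had signals of 7254, 6857 and 7130 in brown and 1147, 1117 and 1249 in white. This difference of 2.60 ± 0.06 (adjusted p = 1.03e-09) was the largest of the 10 genes by main probe set. Sucla2 had 7672, 7620 and 7401 in brown and 1670, 1662 and 1727 in white, a difference of 2.17 ± 0.05 (adjusted p = 8.94e-10). Suclg2 had 1639, 1616 and 1740 in brown and 860.4, 854.9 and 690.8 in white, with white replicate 3 the lowest. Its difference of 1.06 ± 0.09 (adjusted p = 6e-06) was the smallest of the 10, as it was under every alternative that gave it a value. A second probe set of Suclg2, with 628.6, 499.5 and 551.2 in brown and 283.8, 241.3 and 290.1 in white, gave 1.04 ± 0.12 (adjusted p = 4e-05).

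By main probe set, the difference of Sucla2 was thus larger than that of Suclg2. On each array the log2 ratio of Sucla2 to Suclg2 was 2.23, 2.24 and 2.09 in brown and 0.96, 0.96 and 1.32 in white. Every brown array had a higher ratio than every white array, by 1.11 on average or 2.15-fold (exact permutation p = 0.1, the smallest that 3 against 3 allows; 0.114 after adjustment over 8 pairs). With the second Suclg2 probe set the shift was 1.12. Relative to the alpha subunit, Suclg2 was 2.90-fold lower in brown (shift -1.54) and Sucla2 1.35-fold lower (shift -0.43), again without overlap (exact permutation p = 0.1 for both). The shift of Sucla2 against Suclg1 goes the other way in the series table with its sign turned. A dim probe set annotated to Sucla2, with 25.5, 46.5 and 29.7 in brown and 45.4, 25.8 and 16.8 in white, overlapped between tissues (0.28 ± 0.42, adjusted p = 0.605). With it included, the mean over tested probe sets was 1.22 for Sucla2, near the 1.05 for Suclg2.

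The bases just upstream of the genes for the 2 beta subunits are shown because the main probe sets of these alternative subunits differed unequally. Those of Sdhb are shown because it alone of the 9 genes with a promoter entry held a match to any of 3 searched motifs. The bases shown come from RefSeq (GRCm38.p6), 5′ to 3′ on the gene's strand, and end at the first base before the gene's annotated span. No RefSeq gene covers them. Sucla2 lies at chr14:73552536-73552785 (plus strand), Suclg2 at chr6:95718859-95719096 (minus strand) and Sdhb at chr4:140961021-140961270 (plus strand). Capitals mark the motif match.

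Sucla2: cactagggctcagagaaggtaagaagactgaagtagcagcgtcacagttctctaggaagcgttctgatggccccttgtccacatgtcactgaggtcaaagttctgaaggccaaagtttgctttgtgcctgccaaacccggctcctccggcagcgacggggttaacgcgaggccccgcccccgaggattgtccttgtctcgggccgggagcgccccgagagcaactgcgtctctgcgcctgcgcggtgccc
Suclg2: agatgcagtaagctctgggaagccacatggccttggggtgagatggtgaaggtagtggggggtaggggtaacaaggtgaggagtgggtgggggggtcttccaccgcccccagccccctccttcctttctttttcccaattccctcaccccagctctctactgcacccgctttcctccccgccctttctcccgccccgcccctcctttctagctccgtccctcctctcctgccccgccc
Sdhb: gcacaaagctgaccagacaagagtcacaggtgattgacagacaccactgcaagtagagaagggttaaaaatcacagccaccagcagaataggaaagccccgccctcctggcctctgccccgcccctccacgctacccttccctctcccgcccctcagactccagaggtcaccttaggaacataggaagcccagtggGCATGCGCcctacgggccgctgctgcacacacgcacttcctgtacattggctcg

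Motifs were searched on both strands in the 250 bases before the start of 9 of the 10 genes, and no motif contains another. The core of the NRF1 site, GCGCATGC, was found in 1 of the 9, in Sdhb, where it begins 54 bases before the start and appears in reverse complement; it is in 2.26% of all 32851 RefSeq promoters. The core of the estrogen-related receptor site, AAGGTCA, and the ETS core CCGGAAGT were in 0 of the 9, against 4.08% and 2.88% of all promoters. The 250 bases of Suclg2 held 8 CpG dinucleotides, the fewest of the 9, and those of Sucla2 18, where the median of all promoters was 6. The other genes searched held 9 to 27, and a link to the differences was not tested.

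Succinate dehydrogenase has 4 subunits: Sdha carries the flavin that oxidises succinate, Sdhb the iron-sulfur clusters that carry the electrons on, and Sdhc and Sdhd anchor both in the inner membrane and hold the ubiquinone site. Sdha had signals of 8627, 8221 and 7719 in brown and 3610, 3694 and 3523 in white, a difference of 1.18 ± 0.05 (adjusted p = 4.13e-08). Another bright probe set of Sdha, with 7190, 7461 and 7254 in brown and 2212, 2207 and 2564 in white, gave a larger 1.65 ± 0.06, so the size for this subunit depends on the probe set. A dim probe set of Sdha, present on 2 white arrays, had 175 in brown against 65.6 in white (1.43 ± 0.17, adjusted p = 5e-05). Sdhb had 9395, 9292 and 9542 in brown and 2809, 2855 and 2661 in white, a difference of 1.76 ± 0.05 (adjusted p = 1.59e-09).

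Sdhc had 3245, 3184 and 3190 in brown and 992.5, 1042 and 1089 in white, a difference of 1.62 ± 0.06 (adjusted p = 1.2e-08), and 1.66 on its second probe set. Sdhd, the other membrane anchor, had 6296, 5982 and 6170 in brown and 1271, 1234 and 1025 in white, which was 2.39 ± 0.08 (adjusted p = 7.58e-09), the largest difference of the 4 subunits. A dimmer probe set of Sdhd gave 1.84 ± 0.19 and spread more in brown, with 547.2, 958.6 and 573.3; the high value is on replicate 2, the array with the highest actin ratio, whose part in it was not tested. On single arrays the ratio to Sdha was higher in brown without overlap for Sdhb (by 0.58), Sdhc (0.44) and Sdhd (1.21), each with an exact permutation p of 0.1 (0.114 adjusted over the 8 pairs). With the deposited scaling these shifts were 0.52, 0.21 and 1.04. They depended on the probe set taken for Sdha: against its other bright probe set the shifts of Sdhb (0.11, exact permutation p = 0.5) and Sdhc (-0.03, exact permutation p = 0.7) overlapped between tissues. That of Sdhd was 0.74 against this probe set and 0.66 with the second probe set of Sdhd, in both cases without overlap. In the series table with its sign turned, the shift of Sdhb was 0.08 of the same sign and that of Sdhc turned around.

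**Figure D2:**
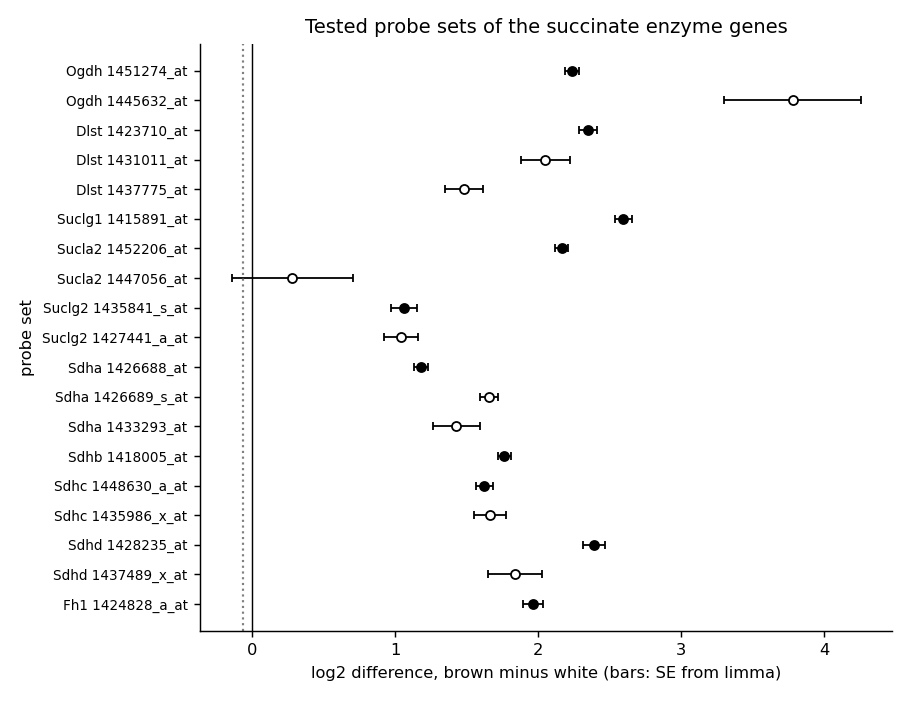
Log2 difference (brown minus white) of the 19 tested probe sets with SE bars from limma; filled points are each gene's main probe set, open points its others, and the dotted line is the median of all probe sets tested, -0.06. The 2 probe sets of Suclg2 coincide, those of Ogdh, Dlst, Sdha and Sdhd spread, and the dim Sucla2 probe set is the 1 near 0.

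All 5 genes that help assemble or guard complex II were higher in brown (27.7% of all genes), with a median difference of 1.43. Sdhaf3 (1.78) and Sdhaf1 (1.48), which serve the iron-sulfur subunit, changed most. Sdhaf4, which binds the flavoprotein subunit, had 1174 ± 47.0 against 436 ± 13.2 (1.43), and Trap1, a mitochondrial chaperone known to bind succinate dehydrogenase, 0.93. Sdhaf2, needed to attach the flavin to Sdha, had the smallest difference (768 ± 53.4 against 474 ± 46.1, 0.70, adjusted p = 0.000177), which spike-in scaling no longer called (0.30, adjusted p = 0.104).

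Fh1, which hydrates the fumarate made by complex II, had signals of 4696, 4255 and 4286 in brown and 1040, 1192 and 1160 in white. The tissues stood apart by 1.97 ± 0.07 (adjusted p = 1.12e-08). Against Sdha its ratio was 1.72-fold higher in brown without overlap (0.78, exact permutation p = 0.1). The shift was 0.31, still without overlap, against the other bright Sdha probe set, and -0.29 in the series table as headed.

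**Figure D3:**
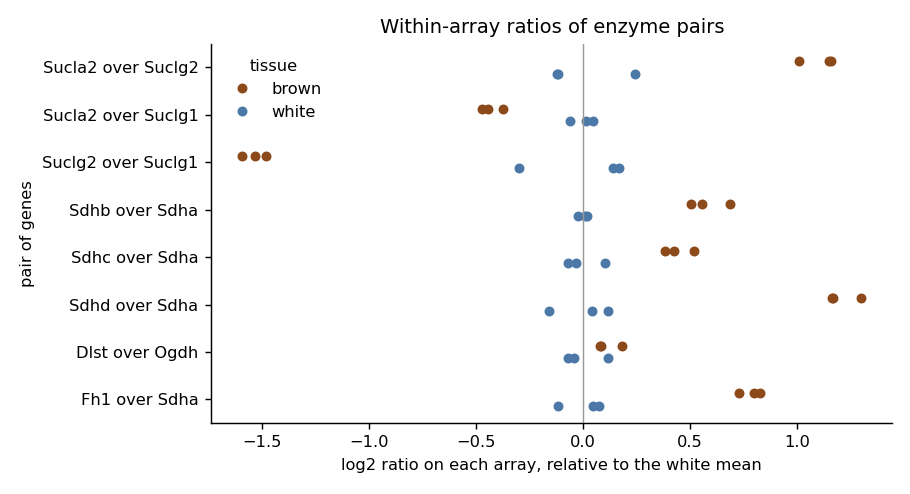
Log2 ratio of 2 genes on each array, relative to the mean of the white arrays, for the 8 pairs compared, by main probe set (brown and white points, n = 3 each). Sucla2 over Suclg2 and Sdhd over Sdha moved up in brown by 1.11 and 1.21, Suclg2 over Suclg1 moved down, and the points of Dlst over Ogdh overlap.

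By enzyme, the median difference was 2.29 for the 2 oxoglutarate dehydrogenase genes, 2.17 for the 3 ligase genes and 1.69 for the 4 genes of complex II. The profile of the 10 genes over the 6 arrays was matched most closely, by root mean square distance of centred log2 signals among genes present on all arrays, by Ndufv2 (0.03), Ndufa9 (0.03), Mrpl18 (0.04), Pon1 (0.05) and Samm50 (0.05). With 2 tissues whose replicates lie close, this distance mostly measures the size of the difference, which was 1.89 to 1.93 for the genes named. Shared regulation was not tested. Among the 10, Fh1 (0.07) and Sdhb (0.09) lay closest to their common mean, and Suclg2 (0.45) and Sdha (0.38) farthest.

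The remaining enzymes of the cycle went the same way, with a median of 1.92. Of those tested, 6 of 6 were higher in brown, against 27.7% of all genes tested. Idh3b (2.28), Idh3g (2.03) and Idh3a (2.02), the subunits of the isocitrate dehydrogenase that makes 2-oxoglutarate, had values near that of Ogdh, while citrate synthase (Cs, 0.91) and malate dehydrogenase (Mdh2, 0.997) had values close to that of Suclg2. Idh2, the NADP-linked isocitrate dehydrogenase, had 1.82, and its other tested probe set was not called. The enzymes that bring 2-oxoglutarate in from glutamate were not called: Glud1 had 1838 ± 193 against 1683 ± 109 (0.12, adjusted p = 0.248) and Got2 695 ± 37.8 against 720 ± 22.3 (-0.05, adjusted p = 0.586). Glud1 was called without brown replicate 2 (0.21, adjusted p = 0.0384), and with median centring (0.35, adjusted p = 0.0065), and the deposited scaling gave a call for Got2 (-0.44, adjusted p = 0.000776). The sign of Glud1 turned with the deposited and spike-in scaling and that of Got2 with median centring.

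Other routes into the pool were higher in brown in 7 of 9 cases, against 27.7% of all genes tested. These include the propionate pathway, which makes succinyl-CoA from odd-chain fatty acids and branched-chain amino acids: Mcee (2.03), Pcca (1.26), Mmut (1.19) and Pccb (1.14), with its cobalamin helpers Mmab (1.13) and Mmaa (201 ± 30.0 against 61.0 ± 22.6, with no present call on a white array). Oxct1, which turns succinyl-CoA into succinate as it activates ketone bodies, had 3820 ± 171 against 3343 ± 181 (0.19, adjusted p = 0.017). Its value was 0.15 without brown replicate 1 (adjusted p = 0.0693), 0.16 without white replicate 3 (0.0636) and 0.23 with spike-in scaling (0.0752), none of them called, and 0.68 with median centring (3.19e-06). Its 3 other tested probe sets were called higher in brown. Abat, the transaminase that opens the GABA route to succinate, went the other way: it was not called present on any brown array and was at least 9.72-fold higher in white (adjusted p = 1.62e-05). Aldh5a1, the last step of that route, had 276 ± 34.1 against 257 ± 15.5 (0.10, adjusted p = 0.534), and was called lower in brown under the deposited scaling, at -0.41 (adjusted p = 0.0157).

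Of 3 genes that use or remove succinyl groups, 1 was higher in brown, 1 lower and 1 not called. These counts are near the shares over all genes tested, 27.7% higher in brown and 32.2% lower. Sirt5, which takes succinyl groups off proteins, was higher in brown (325 ± 43.0 against 104 ± 12.8, 1.65, adjusted p = 8.2e-06). Alas1, which spends succinyl-CoA on the first step of heme synthesis, was lower in brown (1295 ± 86.0 against 1595 ± 129, -0.30, adjusted p = 0.00962), and lost its call with median centring (-0.11, adjusted p = 0.287); its other tested probe set was not called. Alas2, the form of red cell precursors, had 292 ± 40.6 against 237 ± 17.1 (0.30, adjusted p = 0.0715), and its value turned to -0.20 under the deposited scaling.

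Of 5 tested genes through which succinate is carried or sensed, 2 were lower in brown, 1 higher and 2 not called. These counts are near the shares over all genes tested, 32.2% lower in brown and 27.7% higher. Sucnr1, the succinate receptor at the cell surface, averaged 53.5 ± 11.8 on brown arrays against 1288 ± 175 on white ones, a difference of -4.60 ± 0.17 (adjusted p = 1.39e-08). Slc25a10 (present on 2 brown arrays), the dicarboxylate carrier that exchanges succinate and malate across the inner membrane, had 199 ± 10.8 against 1125 ± 98.4 (-2.50 ± 0.10, adjusted p = 1.95e-08). Slc16a1, the monocarboxylate transporter MCT1 that also carries succinate in its protonated form, was higher in brown (2793 ± 68.0 against 600 ± 29.1, 2.22 ± 0.06, adjusted p = 3.7e-09). The plasma membrane dicarboxylate and citrate carriers Slc13a3 (0.50, adjusted p = 0.133) and Slc13a5 (0.52, adjusted p = 0.145) were dim and not called, and Slc13a5 had -0.01 with the deposited scaling. The white arrays also held the higher macrophage marker signals given above, and their part in the Sucnr1 value was not tested.

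Complex II is 1 of several enzymes that reduce ubiquinone. Of 6 others, 3 were higher in brown and 3 lower, against 27.7% and 32.2% of all genes tested. Gpd2 (2.96), which oxidises glycerol phosphate, and Etfdh (2.84), which collects electrons from fatty acid oxidation, were higher in brown, above the 10 genes when each is taken by its main probe set with quantile normalisation. Dhodh, of pyrimidine synthesis, was higher by 0.74 (adjusted p = 0.00872), a call that the deposited scaling did not give (0.23, adjusted p = 0.34). Prodh, of proline breakdown (-0.95, adjusted p = 2.08e-05), Chdh, which oxidises choline (-0.45, adjusted p = 0.00122), and Sqor, which oxidises sulfide (-0.24, adjusted p = 0.0103), were lower in brown, and the call of Sqor was lost with median centring (-0.06, adjusted p = 0.506).

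Of 5 hydroxylases that consume 2-oxoglutarate and release succinate, 2 were higher in brown, 2 lower and 1 not called. The shares over all genes tested were 27.7% higher in brown and 32.2% lower. Of the prolyl hydroxylases that sense oxygen, Egln3 (161 ± 10.9 against 53.1 ± 12.8, 1.62) and Egln1 (1290 ± 59.1 against 459 ± 25.9, 1.49) were higher in brown. Egln2 had 348 ± 15.8 against 416 ± 72.1 (-0.25, adjusted p = 0.144), and was called under the deposited scaling (-0.70, adjusted p = 0.000619) or when white replicate 3 was left out (-0.40, adjusted p = 0.0125). The collagen prolyl hydroxylases were lower in brown. P4ha2 was called absent on all brown arrays and was 2.78-fold higher in white by mean log2 signal. P4ha1 had -0.66 (adjusted p = 0.00432), and its other tested probe set was not called. The 4 fibroblast markers, collagen genes among them, were lower in brown too, and their part in this was not tested.

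**Figure D4:**
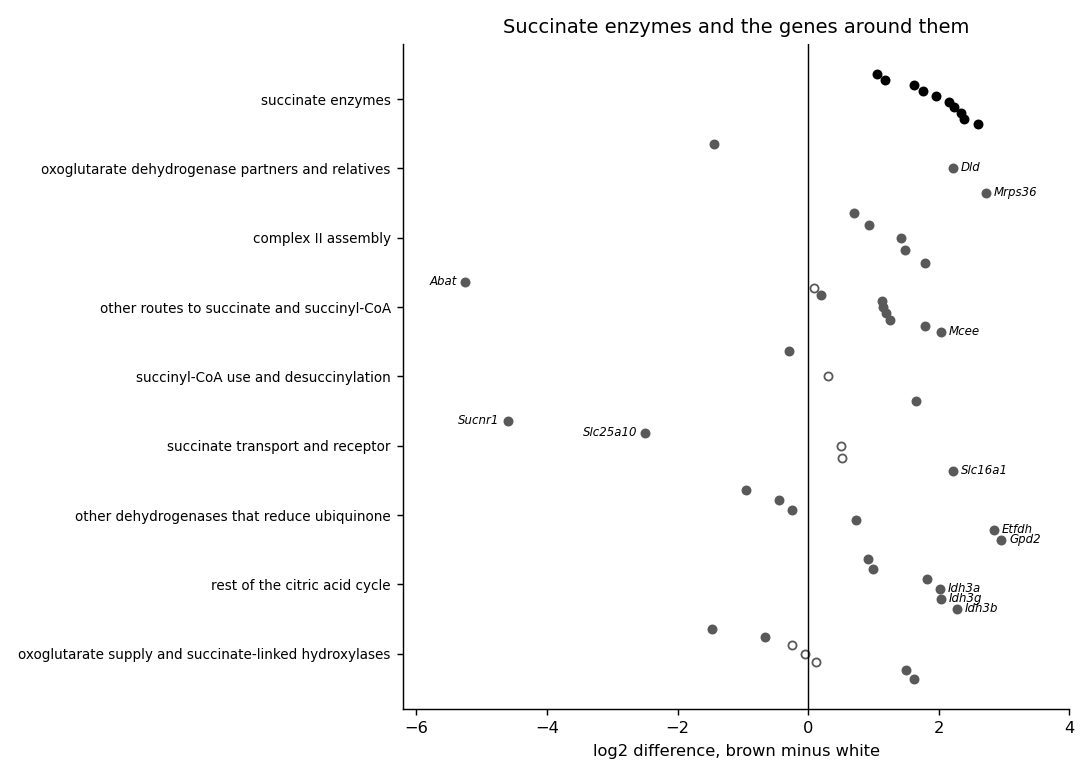
Log2 difference (brown minus white) of the 10 succinate enzyme genes and of the tested genes of 8 lists around them, 1 point per gene; filled points passed an adjusted p of 0.05 and open points did not. The 10 enzyme genes lie between 1.06 and 2.60, while Sucnr1, Slc25a10 and Abat stand far to the white side; the point of Abat is a fitted value, as brown is at background.

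Over the 8 lists, 27 of 44 tested genes were called higher in brown and 10 higher in white, with a median of 0.96. Over all genes tested, 27.7% were called higher in brown and 32.2% higher in white, with a median of -0.04. These shares are the background for the counts of each list above. The order of the 10 enzyme genes by difference was not the same in the series table. In the series table with its sign turned, Dlst (2.61) and Sucla2 (2.54) came first, Ogdh was sixth at 1.504, and Suclg2 was again last at 1.04, next to Sdhc (1.21) and Sdha (1.26). With the deposited scaling Suclg2 had 0.76, the only 1 of the 10 below a difference of 1.

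**Figure D5:**
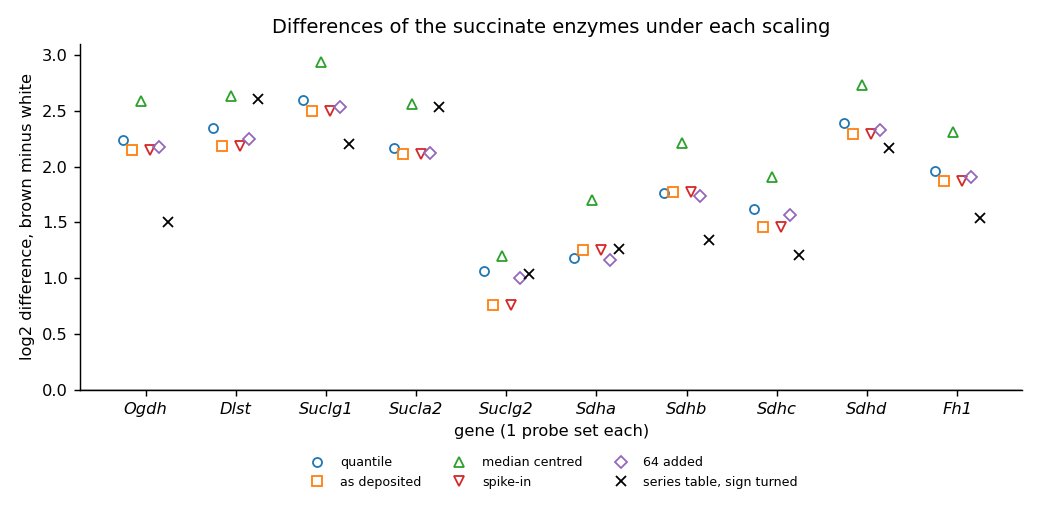
Log2 difference (brown minus white) of each gene's main probe set with quantile normalisation, the deposited scaling, median centring, spike-in scaling and 64 signal units added, and in the series table with its sign turned (crosses). Every point lies above 0.7, Suclg2 is the lowest in each setting drawn, and the crosses change the order of the genes.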

How the data were processed

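The authors deposited 1 file per array with, per the file headers, a signal intensity, a presence call and the detection p-value of that call for each probe set. No source used here gives the software or the scaling. They also deposited a series table of linear signal intensities whose processing, scale factor and centring are unknown (column medians 64.3, 62.9 and 63.8 headed brown; 56.7, 56.8 and 55.9 headed white). It served only as an alternative.

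Of 45101 probe sets, 64 controls were left out. Symbols came from the platform annotation (34945 probe sets had 1, 932 several, 9160 none). The 1 signal of 0 was set to 0.1. Because the 2% trimmed means of the arrays differed up to 1.37-fold, log2 signals were quantile-normalised. Probe sets present on at least 3 of 6 arrays (19819) entered a limma fit (version 3.58.1, R version 4.3.3; eBayes with trend), with Benjamini-Hochberg adjustment over all of them; the fit was tested on simulated data. Where the dimmer tissue was called absent, not marginal, on all arrays, folds were taken from mean log2 signals. Each dim array entered with the higher of its lowest present signal and the probe set's own. For Abat this gave a lower bound, and for P4ha2 and the dim probe sets of Ogdh and Dlst the fitted fold itself. Ratios within arrays used exact two-sided permutation tests. The number of arrays limits the precision.

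Every succinate enzyme was named with its probe sets. Any gene of the 8 lists could be named; for lists with over 6 tested genes the rule asked for the 3 largest called differences in each direction and the genes not called, and the further genes of those lists are given for completeness. These genes and lists were chosen with earlier results of these data known. Some genes of these lists are not reported here. Same-numbered arrays of the tissues did not deviate together (correlations 0.02, -0.01 and -0.05). Differently numbered arrays did not either (-0.05 to 0.07), so this cannot tell which arrays share a mouse. The numbers were not used as pairs. Alternatives covered scaling, low signals, the detection filter, the variance model, a replicate block, the mean over a gene's probe sets, shared probe set kinds left out, each array left out and the series table.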

Additional observations from a re-analysis of the deposited data

How the results depend on the processing

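All 10 enzyme genes kept their direction and call with every scaling of the array files, 64 units added, no detection filter or presence on all 6 arrays, no trend, the replicate block (10 of 10 genes and 18 of 19 probe sets higher in brown) and each array left out; without probe sets of shared kinds, 7 of the 10 had a value and kept theirs. The mean over a gene's tested probe sets, which gives no call, kept the direction of all 10 but moved Sdha (1.42), Sdhd (2.11), Sucla2 (1.22), Ogdh (3.01) and Dlst (1.96). The replicate block changed no other call among the 44 list genes. The median difference of all tested probe sets was -0.06, -0.53 with the deposited and the spike-in scaling, and -0.08 with median centring. With the deposited scaling the shift of Sucla2 over Suclg2 was 1.36, of Sdhc over Sdha 0.21, of Sdhd over Sdha 1.04 and of Fh1 over Sdha 0.61. With the second brightest probe set of Sdha, an alternative chosen after seeing the data, the shifts against it were 0.11 (Sdhb), -0.029 (Sdhc), 0.739 (Sdhd) and 0.312 (Fh1), and with that of Sdhd the shift of Sdhd was 0.656.

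With the series table as headed, 0 of 10 genes and 0 of 19 probe sets were called higher in brown and 19 in white, and over the lists 9 in brown and 27 in white; 42 of the 44 list genes turned sign. The differences were -1.26 (Sdha), -1.34 (Sdhb), -1.21 (Sdhc), -2.16 (Sdhd), -2.20 (Suclg1), -1.04 (Suclg2), -2.54 (Sucla2), -1.50 (Ogdh), -2.61 (Dlst) and -1.54 (Fh1). The pair shifts as headed were -1.50 (Sucla2 over Suclg2), -0.33 (Sucla2 over Suclg1), 1.17 (Suclg2 over Suclg1), -0.082 (Sdhb over Sdha), 0.049 (Sdhc over Sdha), -0.91 (Sdhd over Sdha), -1.10 (Dlst over Ogdh) and -0.29 (Fh1 over Sdha). With the sign turned, Sucla2 over Suclg1 and Sdhc over Sdha therefore go against the array files. The cause was not tested.

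Among list genes not called, values that turned sign with the deposited and spike-in scaling were Aldh5a1 (-0.41 and -0.41), Alas2 (-0.20 and -0.20), Slc13a5 (-0.013 and -0.012) and Glud1 (-0.10 and -0.10), and Got2 (0.008) with median centring. Calls of Oxct1, Alas1 and Sqor were also lost without the trend (adjusted p = 0.126, 0.0551 and 0.0609).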
